A study of Mus musculus with 3 samples.

Results

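Grm8, Tafa1, Acvr2b, Pld4 and Tmc5 are 5 of the 32285 genes counted in liver nuclei of male C57BL/6N mice. They were selected by their higher level in hepatocyte-like nuclei of the Aza-TdC library than of the MASLD library, so that difference is given as a description only. Single-nucleus RNA sequencing gave 1 library per group. The Aza-TdC library came from the MASLD diet (#TD.190142) with a glucose and fructose drink for 18 weeks, and from week 14 to week 18 these mice also received Aza-TdC (the nucleoside analogue 5-Aza-4′-thio-2′-deoxycytidine) by mouth at 2 mg/kg a day. The MASLD library (metabolic dysfunction-associated steatotic liver disease) had the same diet and drink for 18 weeks without the compound, and the SD library came from a standard diet. Mice in all groups were 8 weeks old when the diets began, and every library was made from 120 mg of frozen liver whose nuclei were sorted on DAPI. With 1 library per group, no test between groups was possible, and the treatment, the animal and the library cannot be told apart. The number of animals behind a library is not known here. The intervals given are 95% intervals that cover counting error only.

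Aza-TdC is a cytidine analogue that enters DNA and traps DNA methyltransferase 1 (DNMT1), the enzyme that copies methylation of CG sites to new DNA strands. The genes come from unrelated families. Grm8 encodes a metabotropic glutamate receptor of group III, a Gi-coupled receptor best known from presynaptic nerve terminals. Tafa1 encodes a small secreted chemokine-like protein of brain, and TAFA proteins can bind neurexins. Acvr2b encodes a type II activin receptor, a serine/threonine kinase that binds activins, myostatin and GDF11. Pld4 encodes an exonuclease of endolysosomes that degrades single-stranded nucleic acid and is known from macrophages, microglia and dendritic cells. Tmc5 belongs to the transmembrane channel-like family, whose member TMC1 forms part of the mechanotransduction channel of hair cells.

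In the GRCm38 annotation, Grm8 (ENSMUSG00000024211) lies at chr6:27275119-28135178 on the minus strand and spans 860.1 kb. Tafa1 (ENSMUSG00000059187, named Fam19a1 in that annotation) lies on the plus strand of the same chromosome at chr6:96113154-96657198. Acvr2b (ENSMUSG00000061393) is at chr9:119402118-119434995, Pld4 (ENSMUSG00000052160) at chr12:112760655-112768990 and Tmc5 (ENSMUSG00000030650) at chr7:118597297-118675086, all on the plus strand. All 5 are protein-coding. The promoters are shown because DNMT1, which the compound traps, copies methylation of CG sites. Whether these promoter sequences bear on the levels was not tested. RefSeq (GRCm38.p6) promoter sequences, from 250 bases before to 50 bases after a gene start, were matched for 4 of the 5 genes, Tmc5 being the exception, and for Grm8 the one nearest the annotated start of 3 was taken. They are printed 5′ to 3′ on the gene's strand with every CG in capitals, for Grm8 at chr6:28135097-28135396, Acvr2b at chr9:119401928-119402227, Tafa1 at chr6:96112904-96113203 and Pld4 at chr12:112760405-112760704.
Grm8: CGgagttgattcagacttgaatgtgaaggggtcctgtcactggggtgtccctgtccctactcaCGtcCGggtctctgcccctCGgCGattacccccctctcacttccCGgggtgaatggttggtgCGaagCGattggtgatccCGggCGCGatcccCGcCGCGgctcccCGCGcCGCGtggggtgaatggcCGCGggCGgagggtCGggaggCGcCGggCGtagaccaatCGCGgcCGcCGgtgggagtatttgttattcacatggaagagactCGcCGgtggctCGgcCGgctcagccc
Acvr2b: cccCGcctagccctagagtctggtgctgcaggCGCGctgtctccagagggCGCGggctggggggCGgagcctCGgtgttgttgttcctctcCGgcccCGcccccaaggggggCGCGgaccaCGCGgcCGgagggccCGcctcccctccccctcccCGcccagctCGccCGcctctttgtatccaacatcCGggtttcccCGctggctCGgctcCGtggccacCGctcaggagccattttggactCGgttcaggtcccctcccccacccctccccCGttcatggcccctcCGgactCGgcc
Tafa1: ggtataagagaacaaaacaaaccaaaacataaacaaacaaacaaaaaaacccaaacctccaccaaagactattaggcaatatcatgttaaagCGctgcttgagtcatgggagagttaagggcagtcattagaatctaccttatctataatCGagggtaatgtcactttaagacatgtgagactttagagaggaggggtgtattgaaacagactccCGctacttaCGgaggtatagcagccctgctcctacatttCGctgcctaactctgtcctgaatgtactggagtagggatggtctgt
Pld4: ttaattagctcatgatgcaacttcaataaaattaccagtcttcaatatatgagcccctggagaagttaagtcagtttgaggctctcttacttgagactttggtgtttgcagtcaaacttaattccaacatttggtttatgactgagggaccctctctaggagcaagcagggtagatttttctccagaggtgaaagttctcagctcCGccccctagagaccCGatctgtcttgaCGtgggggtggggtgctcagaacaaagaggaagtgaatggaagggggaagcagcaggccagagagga

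The 4 promoters fell into a CG-dense and a CG-poor pair. The Grm8 promoter held 33 CG sites in 300 bases, with 67.0% G and C and 0.986 times the CG number that its base composition gives. The Acvr2b promoter held 27, with 73.3% G and C and a ratio of 0.695. The Tafa1 promoter held only 5 (42.0% G and C, ratio 0.378) and the Pld4 promoter 3 (46.7% G and C, ratio 0.188). Among the 27025 promoters of the table, with 1 promoter taken per gene, 8.27% held at least as many CG sites as that of Grm8, 15.4% as that of Acvr2b, 61.7% as that of Tafa1 and 76.2% as that of Pld4. These are counts in the reference sequence. No methylation was measured.

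The 3 files held 7598 (Aza-TdC), 6928 (MASLD) and 7139 (SD) nuclei with 51789068, 43569644 and 45162618 UMIs (unique molecular identifiers, each 1 counted RNA molecule), of which 6813, 5980 and 6858 were hepatocyte-like, at medians of 6748, 6409.5 and 5946.5 UMIs per nucleus. The 15 hepatocyte markers summed to 24287, 20393 and 23214 CPM (counts per 1000000 UMIs) in them. Hepatocyte-like nuclei separated by library, with 3892 and 2514 Aza-TdC nuclei in clusters 0 and 4, 2441 and 3106 MASLD nuclei in clusters 1 and 2, and nearly every SD nucleus in clusters 15 to 18. MASLD hepatocyte-like nuclei stood apart in Themis, a T cell gene, at 60.4 CPM against 7.21 CPM in Aza-TdC and 6.86 CPM in SD, and in the pancreatic enzyme gene Cpb1, at 1.82 CPM against 0 UMIs in both other libraries. Themis is among the 10 leading genes of cluster 2, and values without that cluster are given where they end a call, turn a direction or move a ratio by over 1.5 times. Library pairs shared 9 to 15 cell barcodes, at most 0.197% of a library. Dnmt1 had 9.88, 9.01 and 7.74 CPM in hepatocyte-like nuclei of Aza-TdC, MASLD and SD. The compound acts on the DNMT1 protein, so this level checks no label.

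Grm8 was the most heavily counted of the 5 genes, with 12779 UMIs in Aza-TdC hepatocyte-like nuclei against 1650 in MASLD and 2260 in SD. Its level was 257 CPM (253 to 262) in Aza-TdC, 39.9 CPM (38.0 to 41.9) in MASLD and 51.0 CPM (48.9 to 53.1) in SD. The intervals of the 3 libraries did not overlap. The log2 ratio of Aza-TdC over MASLD was 2.69 (2.61 to 2.76), a 6.44-fold difference. Without cluster 2 of the MASLD library it was 1.66, since the Grm8 level in that cluster was 3.11 CPM. The log2 ratio of Aza-TdC over SD was 2.34 (2.27 to 2.40).

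Acvr2b had 5250 UMIs in Aza-TdC, 851 in MASLD and 1218 in SD hepatocyte-like nuclei. Its level was 106 CPM (103 to 109) in Aza-TdC, 20.6 CPM (19.2 to 22.0) in MASLD and 27.5 CPM (26.0 to 29.1) in SD, again with no overlap. The log2 ratio was 2.36 (2.25 to 2.46) over MASLD, or 5.13-fold, and 1.94 (1.85 to 2.03) over SD.

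The other 3 genes were rarely counted. Tafa1 had 153 UMIs in Aza-TdC, 15 in MASLD and 39 in SD, which is 3.08 CPM (2.61 to 3.61), 0.363 CPM (0.203 to 0.599) and 0.880 CPM (0.626 to 1.20). The Aza-TdC value lay above both others, and the interval of MASLD lay just below that of SD. Its log2 ratio was 3.08 (2.32 to 3.96) over MASLD and 1.81 (1.29 to 2.35) over SD. The ratio over MASLD was 2.44 without cluster 2 of that library, and 1.37 over all kept nuclei of every class.

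Pld4 had 236 UMIs in Aza-TdC, 29 in MASLD and 21 in SD, or 4.75 CPM (4.16 to 5.40), 0.702 CPM (0.470 to 1.01) and 0.474 CPM (0.293 to 0.724). The intervals of MASLD and SD overlapped, and that of Aza-TdC lay above both. Its log2 ratio was 2.76 (2.20 to 3.37) over MASLD and 3.33 (2.68 to 4.05) over SD. Over all kept nuclei of every class, the ratio over MASLD was 1.97.

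Tmc5 had 55 UMIs in Aza-TdC against 3 in MASLD and 8 in SD, at levels of 1.11 CPM (0.834 to 1.44), 0.0726 CPM (0.0150 to 0.212) and 0.180 CPM (0.0779 to 0.356). Its log2 ratio of 3.93 over MASLD rests on 3 MASLD UMIs, and the interval ran from 2.31 to 6.25. Over SD the ratio was 2.62 (1.54 to 3.90).

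**Figure D1:**
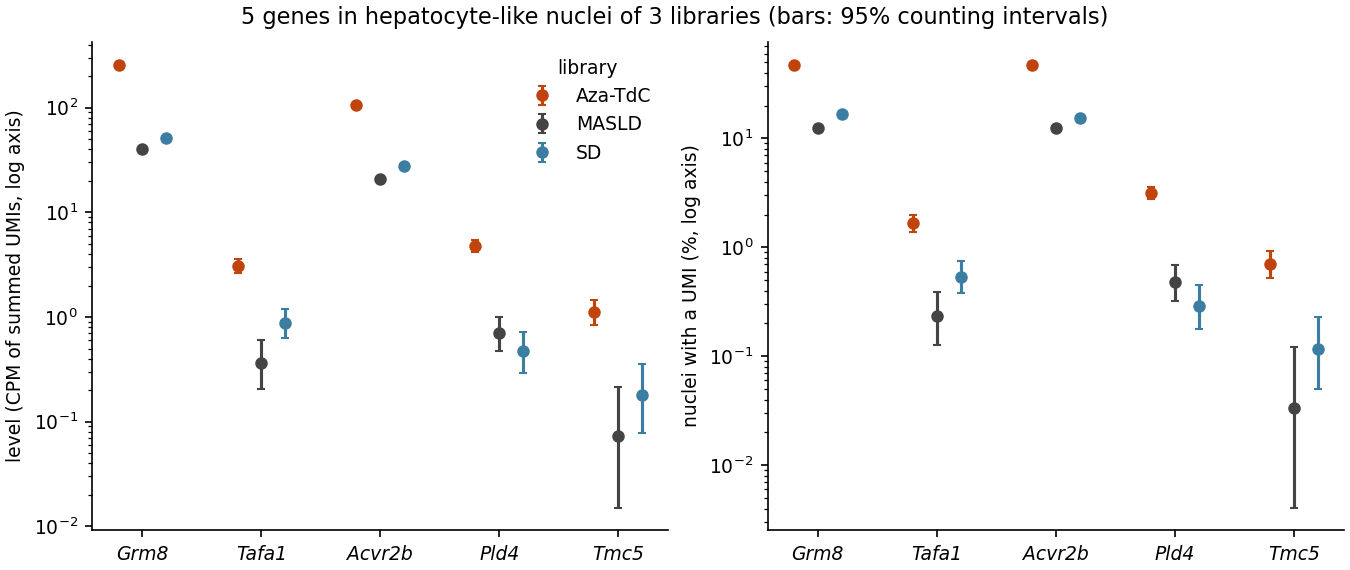
Levels in CPM of summed UMIs (left, log axis) and shares of nuclei with at least 1 UMI (right, in percent, log axis) of the 5 genes in hepatocyte-like nuclei, with 1 point per library (Aza-TdC, MASLD, SD) and bars for 95% counting intervals. Each gene is highest in Aza-TdC, with Grm8 at 257 CPM there and Tmc5 at 1.11 CPM.

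A gene was called higher or lower where the log2 ratio was at least 1 in size and its interval excluded 0, among genes with at least 20 UMIs over both libraries. In Aza-TdC over MASLD, 450 of 15940 genes (2.82%) were called higher and 4.87% lower, and all 5 genes were among the higher, which follows from how they were selected. Ordered by the interval bound nearest 0, they held places 11 (Grm8), 14 (Tafa1), 16 (Tmc5), 17 (Acvr2b) and 22 (Pld4). The median log2 ratio of all measured genes was -0.092. In Aza-TdC over SD, 10.0% of 15882 measured genes were called higher, and again all 5 genes were. That comparison shares the Aza-TdC library with the one used for the selection, so the 5 calls there are not independent of it.

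In MASLD over SD, where 13.0% of 15772 measured genes were called higher, none of the 4 measured genes was. In the same comparison 4.86% of genes were called lower, and Tafa1, at -1.28 (-2.24 to -0.38), was 1 of them, on 15 against 39 UMIs. The call was lost without cluster 2 of the MASLD library, where this Tafa1 ratio was -0.63, and among nuclei without other classes' markers, where it was -0.21. It was also lost as a mean over nuclei, at -0.93. Grm8 had a log2 ratio of -0.35 (-0.44 to -0.26) and Acvr2b of -0.42 (-0.54 to -0.29), both inside the fold limit. The Grm8 value was 0.68 without cluster 2 of the MASLD library, so the sign of this summed ratio depended on that cluster. Leaving it out removed nuclei low in Grm8 (3.11 CPM) from MASLD only. SD kept its own low clusters 15, 16 and 17 (5.32 to 12.4 CPM). By zone of the zonation score described below, with cluster 2 kept, the Grm8 ratio was -0.21 (-0.31 to -0.10) periportal, -0.94 (-1.16 to -0.72) middle and -1.99 (-2.73 to -1.31) pericentral. Pld4, at 0.57 (-0.29 to 1.45), had an interval that included 0, and Tmc5 had too few UMIs to be measured. Scaling by median ratios moved the median of all genes in this comparison by -0.14.

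The share of nuclei with a UMI separated the genes into a frequent and a rare kind. Grm8 was detected in 47.1% (45.9 to 48.3) of Aza-TdC hepatocyte-like nuclei, against 12.5% in MASLD and 16.6% in SD. Acvr2b was detected in 46.9% (45.7 to 48.1) of Aza-TdC nuclei, against 12.5% in MASLD and 15.3% in SD. The 2 genes thus had nearly the same shares in every library but were distributed differently within positive nuclei. Positive Aza-TdC nuclei held 3.98 Grm8 UMIs on average with a maximum of 33, and 2370 of the 3207 had 2 or more. For Acvr2b the mean was 1.64 with a maximum of 10, and 1269 of the 3193 positive nuclei had 2 or more. In MASLD the means were 2.21 for Grm8 and 1.14 for Acvr2b.

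Pld4 was detected in 3.16% (2.75 to 3.60) of Aza-TdC hepatocyte-like nuclei, against 0.485% in MASLD and 0.292% in SD. Tafa1 was detected in 1.66% (1.37 to 1.99), against 0.234% and 0.540%. Tmc5 was detected in 0.705% (0.520 to 0.933), against 0.0334% and 0.117%. Most of these nuclei had a single UMI, 197 of the 215 with Pld4, 85 of the 113 with Tafa1 and 42 of the 48 with Tmc5 in the Aza-TdC library.

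Depth differed little between the libraries, and thinning every nucleus to 2000 UMIs kept the order for Grm8 and Acvr2b. After thinning, which left out 101 Aza-TdC, 98 MASLD and 147 SD nuclei, Grm8 was at 29.6% in Aza-TdC, 6.23% in MASLD and 8.03% in SD. Acvr2b was then at 18.7%, 4.12% and 5.34%. Pld4 was at 0.880%, 0.150% and 0.113%, and Tafa1 at 0.559%, 0.0841% and 0.160%. For Tmc5 the thinned shares of 0.0148% in MASLD and 0.0318% in SD were under the limit that 0 nuclei would allow (0.0510% and 0.0447%), so no order is read from them, while Aza-TdC had 0.220%.

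Droplets also take up free RNA, so the other named classes (macrophage-like, stellate-like, endothelial-like, mesothelial-like, T and NK-like and B-like nuclei) were used as the level to compare with. For Pld4 the macrophage-like class was left out of it and for Tafa1 the stellate-like class, where these genes were high. These nuclei were shallower, with median UMIs of 1941 to 2527.5 against 5946.5 to 6748 in hepatocyte-like nuclei. Grm8 was at 257 CPM in Aza-TdC hepatocyte-like nuclei against 71.3 CPM in the other classes (log2 ratio 1.85, 1.59 to 2.12), with 47.1% against 9.74% of nuclei positive. Acvr2b was at 106 against 33.0 CPM (1.68, 1.30 to 2.09), with 46.9% against 7.90% positive. Both genes thus stood above the other classes in Aza-TdC.

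In MASLD, Acvr2b was at 20.6 CPM in hepatocyte-like nuclei against 20.9 CPM in the other classes (-0.018, -0.57 to 0.59), and in SD at 27.5 against 30.5 CPM (-0.15, -0.83 to 0.64). Hepatocyte-like nuclei of those libraries were therefore not distinguishable from other classes in Acvr2b level. Grm8 was at 39.9 against 28.6 CPM in MASLD (0.48, 0.014 to 0.99) and at 51.0 against 17.9 CPM in SD (1.51, 0.63 to 2.57).

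Tafa1 was not above that level in the Aza-TdC library. Its 1.66% of hepatocyte-like nuclei stood against 1.96% (0.898 to 3.68) of nuclei of the other classes, and its 3.08 CPM against 8.09 CPM, with 11 of the 12 UMIs of those classes in macrophage-like nuclei. In MASLD, Tafa1 had 0 UMIs in 339 nuclei of other classes, which allows a share of up to 0.885%. Pld4 was likewise at 3.16% against 2.27% (0.742 to 5.22), and at 4.75 against 8.98 CPM (log2 ratio -0.92, -2.16 to 0.72). For Tafa1 and Pld4 these values therefore do not show expression by hepatocytes. Pld4 in the other classes was at 8.98 CPM (2.92 to 21.0, 5 UMIs) in Aza-TdC against 12.4 CPM (5.00 to 25.6, 7 UMIs) in MASLD. Of the 7 MASLD UMIs, 6 were in 4 stellate-like nuclei, and these counts are too few to compare the libraries. In hepatocyte-like nuclei Pld4 was at 4.75 CPM in Aza-TdC against 0.702 CPM in MASLD. The part of free RNA in the hepatocyte-like values was not tested. Tmc5 had 0 UMIs in the 544 shallower nuclei of other classes in Aza-TdC, which allows a share of up to 0.551%, against 0.705% (0.520 to 0.933) of hepatocyte-like nuclei. The upper 95% limit of that 0 was 2.17 CPM against 1.11 CPM in hepatocyte-like nuclei, so a difference from the other classes was not detectable at this depth.

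Grm8 was also higher in some other classes of the Aza-TdC library than of the MASLD library. Acvr2b had an interval above 0 only in the unnamed clusters 3 and 12. Grm8 stood at 71.0 CPM in Aza-TdC against 36.9 CPM in MASLD macrophage-like nuclei (log2 ratio 0.94, 0.30 to 1.63), and had 16 UMIs in 58 Aza-TdC against 0 UMIs in 50 MASLD mesothelial-like nuclei. In the shallow cluster 12, which had endothelial markers but stayed unnamed, Grm8 was at 92.3 against 19.9 CPM (2.21, 1.10 to 3.47) and Acvr2b at 46.2 against 17.7 CPM (1.38, 0.054 to 2.83). Acvr2b in macrophage-like nuclei was at 38.6 against 23.2 CPM, with an interval that included 0 (0.73, -0.11 to 1.63). The interval also included 0 in mesothelial-like nuclei (0.16, -2.05 to 2.50). In stellate-like nuclei, with 2 UMIs in Aza-TdC against 6 in MASLD, the ratio was -1.07 (-4.41 to 1.42). The part of free hepatocyte RNA in these values was not tested.

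The cell classes with the highest levels of the rare genes also differed between the libraries. Pld4 was highest in macrophage-like nuclei, where it stood at 620 CPM (575 to 668) in Aza-TdC, 227 CPM (194 to 264) in MASLD and 256 CPM (165 to 377) in SD. It was detected in 78.1% of 324 Aza-TdC, 45.7% of 243 MASLD and 42.4% of 33 SD nuclei of that class. The log2 ratio there was 1.45 (1.21 to 1.70) in Aza-TdC over MASLD, against 2.76 in hepatocyte-like nuclei. Pld4 was among the genes used for clustering, as was Tafa1, so the class levels of both are descriptions. With the 5 genes left out of clustering, 301 Aza-TdC, 165 MASLD and 18 SD nuclei were macrophage-like. A dendritic-like cluster then held 152, 201 and 15 nuclei. Whether the make-up of the macrophage-like class differed between libraries was not tested. Tafa1 was highest in stellate-like nuclei, at 293 CPM (225 to 375) in 84 Aza-TdC nuclei, 185 CPM (140 to 240) in 106 MASLD nuclei and 177 CPM (128 to 240) in 77 SD nuclei. Its log2 ratio there was 0.66 (0.12 to 1.21).

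Beside these values, the markers of both classes were counted in hepatocyte-like nuclei. The 12 macrophage markers summed to 33.0 CPM in Aza-TdC, 30.2 CPM in MASLD and 8.07 CPM in SD, none was at 0, and 7 had an interval above 0 and 3 below 0 for Aza-TdC over MASLD. The 12 stellate markers summed to 79.8, 120 and 79.1 CPM, none was at 0, and of the 10 measured 8 were lower and none higher in Aza-TdC. The Pld4 level in hepatocyte-like nuclei was 0.766% of that in macrophage-like nuclei in Aza-TdC, 0.309% in MASLD and 0.185% in SD. The same ratio had a median over the macrophage markers of 0.279%, 0.362% and 0.183%. For Tafa1 the level was 1.05%, 0.196% and 0.496% of that in stellate-like nuclei, with marker medians of 0.176%, 0.264% and 0.222%. The Aza-TdC values of both genes thus stood above the medians of their class markers. The highest marker values in that library were 0.950% (macrophage), above that of Pld4, and 1.03% (stellate), just under that of Tafa1. In SD both genes also stood above their marker medians, Pld4 barely.

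In hepatocyte-like nuclei without a single UMI of macrophage, endothelial, stellate, T and NK or B markers (2900 in Aza-TdC, 1933 in MASLD, 3597 in SD), the log2 ratios of Aza-TdC over MASLD were 2.68 (1.70 to 3.85) for Pld4 and 2.44 (1.31 to 3.81) for Tafa1. For Acvr2b the ratio was 2.42 (2.23 to 2.62) and for Grm8 2.21 (2.09 to 2.34). Tmc5 had 18 UMIs in Aza-TdC and 1 in MASLD among these nuclei, a ratio of 3.44 (0.77 to 8.82). These nuclei are a part of those used for the selection, so the ratios are a description, and Tmc5 had fewer than the 20 UMIs that a measured gene needed.

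**Figure D2:**
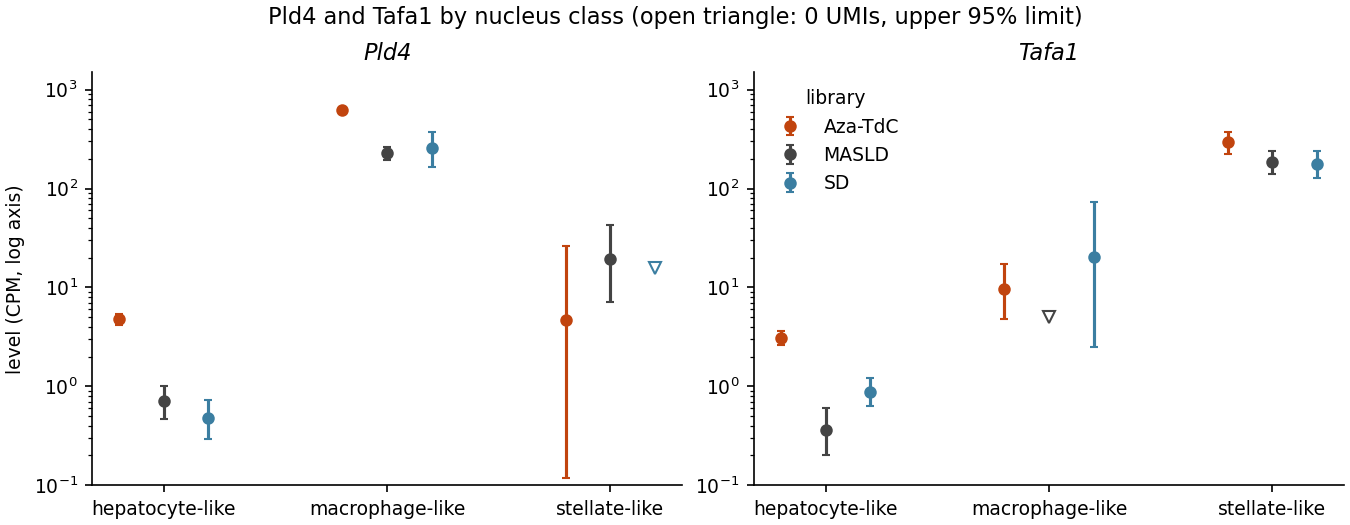
Pld4 (left) and Tafa1 (right) levels in CPM (log axis) in hepatocyte-like, macrophage-like and stellate-like nuclei of each library, with 95% Poisson intervals and open triangles for the upper limit where 0 UMIs were counted. Pld4 is highest in macrophage-like nuclei (620 CPM in Aza-TdC) and Tafa1 in stellate-like nuclei (293 CPM in Aza-TdC).

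Liver lobules are zoned from the portal vein, where urea synthesis and gluconeogenesis prevail, to the central vein, where glutamine synthesis and cytochrome P450 enzymes do. Hepatocyte-like nuclei were ordered within each library by a score of 16 pericentral and 16 periportal genes, and divided into 3 zones of equal size (periportal, middle, pericentral). Genes kept out of the score followed it in the Aza-TdC library, with log2 ratios of the pericentral over the periportal zone of 5.84 for Slc1a2 and 4.53 for Cyp2c29, both pericentral, and of -3.45 for Hal and -2.89 for Gls2, both periportal. In MASLD these were 6.15, 4.27, -4.70 and -4.41. In SD they were 4.56, 2.79, -2.73 and -1.36, so the zones were less sharply separated there. A zone is a range of the score and not a cell type, and 4.73% to 17.4% of nuclei lay within 0.1 SD of a cut.

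Grm8 was strongly periportal in all 3 libraries. Its levels in the periportal, middle and pericentral zone were 449.6, 302 and 22.9 CPM in Aza-TdC, 101, 18.5 and 1.57 CPM in MASLD, and 116, 35.5 and 6.21 CPM in SD. The log2 ratio of the pericentral over the periportal zone was -4.30 (-4.45 to -4.15) in Aza-TdC, -6.01 (-6.69 to -5.40) in MASLD and -4.23 (-4.54 to -3.93) in SD. The log2 ratio of Aza-TdC over MASLD was 2.16 (2.07 to 2.24) in the periportal zone, 4.03 (3.84 to 4.22) in the middle zone and 3.87 (3.25 to 4.56) in the pericentral zone. The periportal interval did not overlap the other 2. The middle zones of the libraries also differed in other zoned genes, whose levels are given below. In every library the pericentral level lay under that of the other classes, at 22.9 against 71.3 CPM in Aza-TdC, 1.57 against 28.6 CPM in MASLD and 6.21 against 17.9 CPM in SD, and the part of free RNA in these low levels was not tested. With 2 zones in place of 3, the log2 ratio of the pericentral over the periportal zone was -2.29 in Aza-TdC, -5.14 in MASLD and -3.33 in SD, so the order of Aza-TdC and SD depended on the number of zones.

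Along 10 equal bins of the score, Grm8 in Aza-TdC stayed between 299 and 474 CPM over the 6 bins nearest the periportal end, then stood at 103, 23.8, 17.1 and 16.3 CPM. In MASLD it was at 134 CPM in bin 1, 54.7 CPM in bin 4 and 2.60 CPM in bin 6. SD had 133 CPM in bin 1, 74.1 CPM in bin 4 and 21.8 CPM in bin 6. The high range thus reached further from the periportal end in Aza-TdC than in either other library, on a score that was set within each library. Other zoned genes also differed between the middle zones of Aza-TdC and MASLD. The periportal genes Hal, Gls2 and Cyp2f2 were at 182 against 43.1 CPM, 254 against 74.7 CPM and 410 against 126 CPM. The pericentral gene Cyp2e1 was at 407 against 1462 CPM. In SD they were at 152, 528, 222 and 674 CPM, in the same order. Whether the wider range is particular to Grm8 was not tested.

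The clusters showed the same split. In Aza-TdC, Grm8 was at 432 CPM in the 3892 nuclei of cluster 0 and 32.0 CPM in the 2514 nuclei of cluster 4. In MASLD it was at 95.9 CPM in the 2441 nuclei of cluster 1 and 3.11 CPM in the 3106 nuclei of cluster 2. Among SD clusters it was at 110 CPM in cluster 18 and at 5.32 to 12.4 CPM in clusters 15, 16 and 17. Grm8 was among the genes used for clustering, so these levels are descriptions.

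Acvr2b had no such gradient. Its levels in the periportal, middle and pericentral zone were 109, 103 and 104 CPM in Aza-TdC, 17.5, 22.6 and 21.6 CPM in MASLD, and 27.4, 28.4 and 26.7 CPM in SD. The log2 ratio of the pericentral over the periportal zone was -0.072 (-0.17 to 0.022) in Aza-TdC, 0.31 (0.056 to 0.56) in MASLD and -0.036 (-0.24 to 0.17) in SD. Aza-TdC over MASLD was 2.64 (2.45 to 2.84), 2.19 (2.01 to 2.37) and 2.27 (2.09 to 2.45) from the periportal to the pericentral zone. Over the 10 bins, Acvr2b ranged from 96.0 to 116 CPM in Aza-TdC. It was also close in clusters 0 (106 CPM) and 4 (110 CPM) of that library, and at 18.1 and 22.5 CPM in clusters 1 and 2 of MASLD. The higher Acvr2b level in Aza-TdC was therefore present along the whole score.

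**Figure D3:**
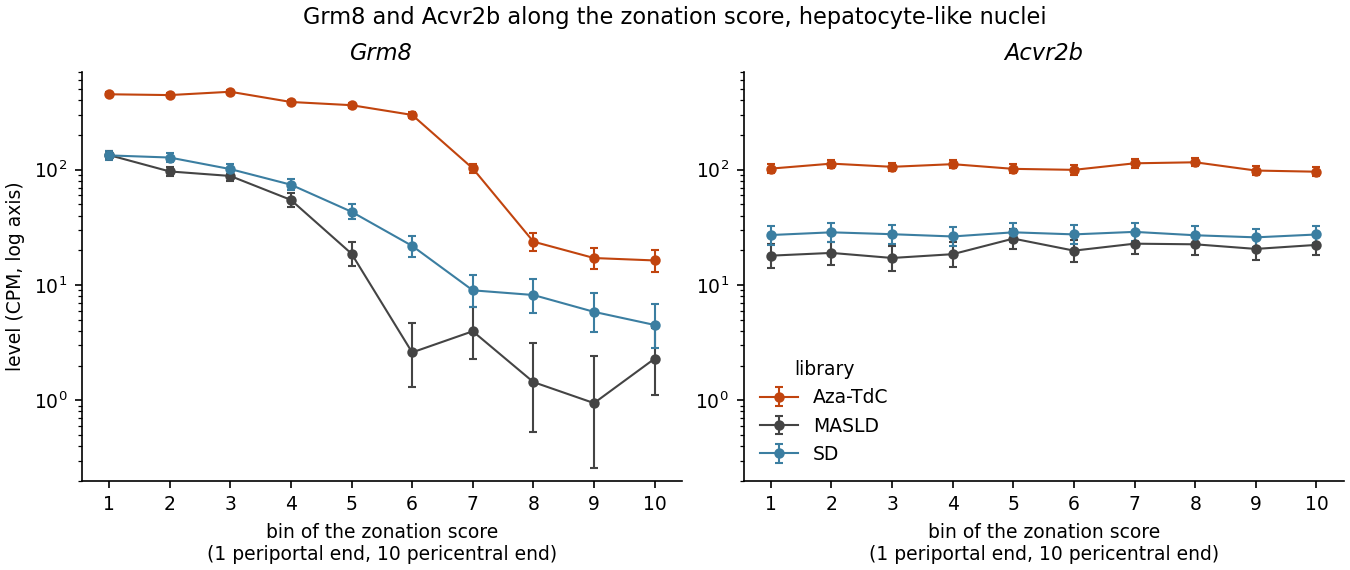
Grm8 (left) and Acvr2b (right) levels in CPM (log axis) over 10 equal bins of the zonation score from the periportal (1) to the pericentral end (10), for hepatocyte-like nuclei of each library, with 95% Poisson intervals. Grm8 declines along the score in every library, from 451 to 16.3 CPM in Aza-TdC, while Acvr2b in Aza-TdC stays between 96.0 and 116 CPM.

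Of the rare genes, Pld4 leaned to the pericentral side in Aza-TdC. It had 67, 54 and 115 UMIs in the periportal, middle and pericentral zone, or 3.92, 3.47 and 6.76 CPM, and a log2 ratio of the pericentral over the periportal zone of 0.79 (0.34 to 1.24). In MASLD it had 10, 11 and 8 UMIs and in SD 5, 13 and 3, and both intervals of the ratio included 0. In cluster 9, which has the pericentral genes Glul and Slc1a2 among its leading genes, Pld4 was at 12.1 CPM (7.68 to 18.2) in 234 Aza-TdC nuclei, with 0 UMIs in 316 MASLD nuclei (upper limit 1.60 CPM).

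Tafa1 leaned to the periportal side in Aza-TdC, with 58, 59 and 36 UMIs in the periportal, middle and pericentral zone and a ratio of the pericentral over the periportal zone of -0.68 (-1.32 to -0.056). In SD, with 18, 16 and 5 UMIs, the ratio was -2.00 (-3.78 to -0.52). Tmc5 had 22, 26 and 7 UMIs in the zones of Aza-TdC, a ratio of -1.64 (-3.12 to -0.37). It had 0, 1 and 2 UMIs in those of MASLD and 1, 5 and 2 in those of SD, too few for an order. Pld4 and Tafa1 were higher in Aza-TdC than in MASLD in each zone, with log2 ratios from 2.10 to 3.57 for Pld4 and from 2.53 to 3.69 for Tafa1, all with intervals above 0.

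**Figure D4:**
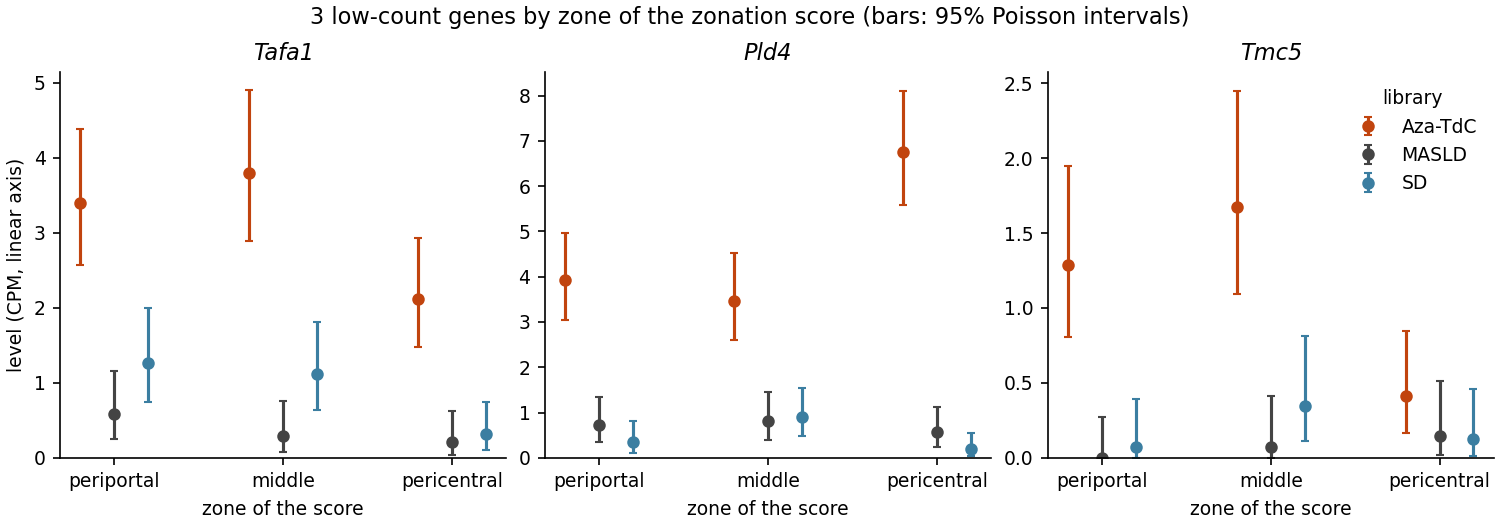
Tafa1, Pld4 and Tmc5 levels in CPM (linear axes that differ between panels) in the periportal, middle and pericentral zone of the zonation score, for each library, with 95% Poisson intervals. In Aza-TdC, Pld4 is highest in the pericentral zone (6.76 CPM), while Tafa1 (2.12 CPM) and Tmc5 (0.411 CPM) are lowest there.

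Whether the genes were detected in the same nuclei was counted in the Aza-TdC library. Of its 6813 hepatocyte-like nuclei, 1878 had none of the 5 genes, 3194 had 1, 1643 had 2, 96 had 3, 2 had 4 and 0 had all 5. The 1741 nuclei with 2 or more stood against 1725 expected if the genes were detected independently within 10 bins of total UMIs, a ratio of 1.01 (0.962 to 1.06). In MASLD the numbers were 109 and 107 (1.02, 0.834 to 1.22) and in SD 210.0 and 207 (1.02, 0.884 to 1.16). Over all nuclei, co-detection was therefore as frequent as depth and the single shares gave. In Aza-TdC this rests mostly on Grm8 and Acvr2b, found together in 1551 nuclei. Pairs among Tafa1, Pld4 and Tmc5 met in 4, 2 and 1 nuclei, too few for such a reading.

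Grm8 and Acvr2b, the 2 frequent genes, were found together in 1551 Aza-TdC nuclei against 1543 expected (1.01, 0.956 to 1.06). Acvr2b stood at 103 CPM (99.1 to 107) in nuclei with Grm8 and 108 CPM (104 to 112) in nuclei without it. Grm8 and Tafa1 met in 67 nuclei against 55.2 expected (1.21, 0.940 to 1.54), and Grm8 and Tmc5 in 32 against 23.3 (1.37, 0.938 to 1.94). Within zones of the zonation score these ratios were 1.06 and 1.08. Grm8 and Pld4, which lean to opposite sides of the score, met in 96 nuclei against 106 expected (0.905, 0.733 to 1.11), and the ratio was 1.06 within zones. Acvr2b and Tmc5 met in 18 nuclei against 24.5 expected (0.735, 0.436 to 1.16). All 10 pairs had an interval that included 1.

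**Figure D5:**
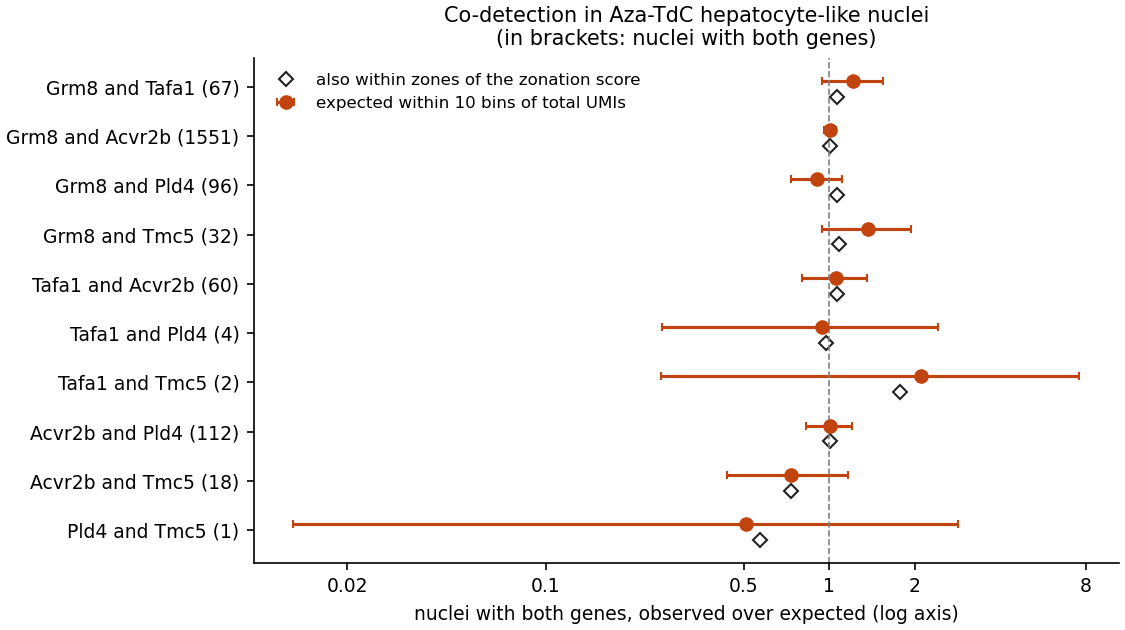
Nuclei with both genes of a pair over the number expected from independent detection (log axis), in Aza-TdC hepatocyte-like nuclei, with filled points and 95% Poisson intervals for 10 bins of total UMIs and open diamonds for such bins within zones of the zonation score. Every interval includes 1, from 1551 nuclei for Grm8 and Acvr2b to 1 nucleus for Pld4 and Tmc5.

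Most other measured genes of the same families were not called between Aza-TdC and MASLD hepatocyte-like nuclei. The counts of a list include its member, whose call follows from the selection. Of 24 glutamate receptor genes, 14 were measured, 3 were called higher and none lower, with a median log2 ratio of 0.31 against -0.092 for all measured genes. Without Grm8, 2 of 13 were called higher, with a median of 0.30. The 2 besides Grm8 were Grik4, a kainate receptor subunit (27 against 5 UMIs, 2.17, 0.77 to 3.90), and Grin1, the obligate NMDA receptor subunit (24 against 6 UMIs, 1.73, 0.41 to 3.31). Of 32 activin and BMP signalling genes, 27 were measured, with a median of 0.023, or -0.021 without Acvr2b. Acvr2b was the only one called higher, and Inhbe, the liver-derived activin E subunit, the only one called lower, at 44.3 CPM in Aza-TdC against 97.6 CPM in MASLD and 27.7 CPM in SD (-1.14 over MASLD, -1.22 to -1.06). The related receptor gene Acvr2a was at 90.7 CPM in Aza-TdC against 89.3 CPM in MASLD.

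In the phospholipase D family, Pld4 was the only one of 5 measured genes called, and the median was 0.26, or 0.20 without Pld4. In the TAFA family, Tafa1 was called higher, while Tafa5 was called lower at 52 UMIs in Aza-TdC against 220 in MASLD (-2.35, -2.81 to -1.91). Of 6 measured TMC genes, Tmc5 was called higher and Tmc1 lower, at 3 against 20 UMIs (-3.0, -5.40 to -1.25).

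Of 23 germline genes known to be silenced by promoter methylation in somatic cells, 3 had the 20 UMIs to be measured, and none was called. They were Sycp3, a synaptonemal complex gene, at 36.2 CPM in Aza-TdC against 51.8 CPM in MASLD (-0.51, -0.61 to -0.42), Brdt, a testis bromodomain gene, on 544 against 383 UMIs (0.24, 0.049 to 0.43), and Ddx4, a germ cell helicase gene, on 13 against 7 UMIs. Of 12 measured genes of the DNA methylation machinery none was called, with a median of 0.13. The background share of 2.82% called higher applies to all these lists.

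The nearest measured genes on both sides of the 5 genes were also compared, leaving out genes that overlap them. Of 20 such neighbours, none was called higher in Aza-TdC over MASLD and 1 was called lower. Over all measured genes 2.82% were called higher and 4.87% lower, so these counts show nothing particular to the neighbours. Their log2 ratios ran from -1.87 (AY512915, beside Tafa1, 27 against 82 UMIs) to 0.73 (Tmem229a, beside Grm8, interval -0.15 to 1.67), with a median of -0.15. Beside Acvr2b, Xylb at a distance of 8.32 kb was at 302 CPM in Aza-TdC against 288 CPM in MASLD (0.067), and Exog, 9.95 kb away, at 5.15 against 7.24 CPM (-0.49). Tmc7, the TMC gene next to Tmc5, was at 54.4 against 45.6 CPM (0.26).

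Gm47320, an antisense transcript inside Acvr2b that was singled out after its values were seen, had 1021 UMIs in Aza-TdC, 286 in MASLD and 116 in SD. Its log2 ratio of Aza-TdC over MASLD was 1.57 (1.38 to 1.76). No source used here says whether counting was by strand, so reads of Acvr2b and Gm47320 may not be fully told apart. No other member overlapped a gene with UMIs in these nuclei.

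The genes most like each member were found by Pearson correlation of log2(CPM + 1) over 21 profiles of library and cell class, among 13007 genes with at least 50 UMIs in Aza-TdC hepatocyte-like nuclei. The profiles share libraries and depth, so the values are descriptions. Grm8 was most like Naa15 (r = 0.82), Parp1 (0.82) and Rbm25 (0.80), none of which was called between Aza-TdC and MASLD. Acvr2b was most like Med25 (0.86), Dtd2 (0.84) and Myg1 (0.83). Pld4, set by its level in macrophage-like nuclei, was most like March1 (0.95), Gm13710 (0.90) and Tcirg1 (0.89). Tafa1 was most like Arhgap24 (0.83), Col24a1 (0.81) and Gm15494 (0.81). Tmc5 was most like Gm45774 (0.99), Glra3 (0.87) and Gm49886 (0.83), of which Gm45774 had a log2 ratio of Aza-TdC over MASLD of 3.13 with 63 UMIs in Aza-TdC.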

How the data were processed

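Gene by nucleus matrices of 3 single-nucleus RNA libraries (10x 3′ v3.1 chemistry) were analysed. The deposited values are raw UMI counts, which per the file headers the authors made in Cell Ranger 6.1.2. The submitters' processing notes also list Seurat 4.4.0, mm10 and GRCm38, with no role. How introns were counted, which annotation was used and whether free RNA or doublets had been removed is unknown here. Groups came from the sample labels.

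A nucleus was kept if it had 500 or more UMIs, 300 or more genes and no more than 5% mitochondrial UMIs, which left out 7 Aza-TdC, 202 MASLD and 0 SD barcodes. Doublets were not called. The kept nuclei of all libraries were clustered jointly and not integrated, on 3000 variable genes and 30 principal components (15 neighbours, Leiden resolution 1; Python 3.11.15 with scanpy 1.11.5, scikit-learn 1.9.0 and igraph 0.11.9). A cluster was named for the class whose markers had a median log2 ratio of at least 3 to the remaining nuclei, with 3 or more of them at least 2 times higher. Otherwise it was hepatocyte-like if 3 hepatocyte markers each reached a share of 0.25 of their top level over clusters. A name was withdrawn if another class had more markers than the cluster's own among the 10 leading genes, or if a shallow cluster had none there. After clusters had been seen, this was narrowed to leading markers that reached a share of 0.25 of their top level, since Themis would otherwise have left cluster 2 unnamed. Cluster 3, led by haemoglobin genes (88 Aza-TdC, 126 MASLD and 0 SD nuclei), and the shallow cluster 12 stayed unnamed.

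UMIs were summed per class and library and scaled to CPM. Levels have exact Poisson intervals, shares exact Clopper-Pearson intervals, and log2 ratios exact conditional binomial intervals, at 95%. A share of 0 allows up to 3 counts. Intervals and limits cover counting error only. Thinned shares are expected values without a random draw. The zonation score is the mean standardised log level of pericentral minus periportal genes within each library. Coordinates came from the GENCODE annotation of GRCm38, in which 32235 of 32285 gene identifiers were found. The interval, co-detection, thinning and zonation steps were tested on simulated data.

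The 5 genes and the related lists were chosen with earlier results of these data known. Named beside the members were up to 4 called genes per list by the interval bound nearest 0, Dnmt1, the 2 nearest measured genes on each side, the 3 most alike genes per member and 4 held-out zonation markers. Alternatives to the filters, resolution, classes, scaling, thinning, score and strata were run. One result of the related lists is not reported here.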

Additional observations from a re-analysis of the deposited data

Results flagged for a closer look

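Pld4 had 49 UMIs in the 202 MASLD barcodes that the filters left out, which is 139 CPM (103 to 184) of their 352367 UMIs. No comparison of kept nuclei used these barcodes, but the alternative without filters did. There the Pld4 log2 ratio of Aza-TdC over MASLD was 1.67, against 1.97 over all kept nuclei. The MASLD hepatocyte-like nuclei were at 0.702 CPM and the MASLD macrophage-like nuclei at 227 CPM. The 7 barcodes left out of the Aza-TdC library had 0 UMIs of Pld4 among 12295 UMIs, and none were left out of SD. Among the same MASLD barcodes Grm8 and Tmc5 had 0 UMIs, Acvr2b 2 and Tafa1 3.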

How the results depend on the processing

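Under the alternatives, 247 recomputed values stayed within the counting interval of the value given (for counts of genes, within 1.5 times). Outside it, 53 moved and 1 changed sign. A change of sign within the interval was counted as staying. An example is the Acvr2b ratio of the pericentral over the periportal zone in SD. It was -0.036, and 0.0043 without the 5% of nuclei with most UMIs. Many of the 53 are shares of nuclei after thinning to 2000 or 4000 UMIs, all of them lower. For Aza-TdC over MASLD, all 5 genes kept a log2 ratio above 1 under every alternative run. Without cluster 2, a choice made after seeing the data, the ratio of Grm8 was 1.66 and that of Acvr2b 2.51, and in MASLD over SD Grm8 changed sign to 0.68 and Acvr2b was at -0.57. Adding cluster 3, also chosen after seeing the data, moved no ratio outside its interval. Grm8 in Aza-TdC over MASLD was at 2.21 in nuclei without other classes' markers, 2.57 as a mean over nuclei and 2.78 with median-ratio scaling. Over all kept nuclei without classes, Pld4 was at 1.97 and Tafa1 at 1.37, and without filters at 1.67 and 1.32. In Aza-TdC over SD, Grm8 was at 2.18 without other classes' markers, and Tafa1 at 1.27 both over all kept nuclei and without filters. In MASLD over SD, Grm8 was at -0.037 without other classes' markers, -0.24 as a mean over nuclei and -0.49 with median-ratio scaling, which put Acvr2b at -0.55. There Pld4 was at 1.97 over all kept nuclei and 2.27 without filters. Tafa1 was at -0.10, -0.056 and, without other classes' markers, -0.21, without cluster 2 at -0.63 and as a mean over nuclei at -0.93. Its lower call in that comparison was lost under each. The cause was not tested. The pericentral over periportal ratio of Grm8 in Aza-TdC was -2.29 with 2 zones in place of 3 (-5.14 in MASLD and -3.33 in SD) and -4.47 without the 5% of nuclei with most UMIs. With at least 50 UMIs required, 1 glutamate receptor gene in place of 3 was called higher and 0 TMC genes in place of 1 lower. Depth limits Tmc5 most, with 3 UMIs in MASLD. No paired analysis was possible because each group has 1 library.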

Other observations

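Over the promoters of genes measured in both Aza-TdC and MASLD hepatocyte-like nuclei, the number of CG sites in 300 bases differed between genes by their call. Genes called higher in Aza-TdC had a median of 6 CG sites (298 promoters), genes called lower a median of 9 (525 promoters) and genes called neither a median of 20 (10790 promoters). At least 10 CG sites were present in 37.2%, 48.0% and 77.1% of them. The median over all 27025 promoters of the table was 7. The promoters of Tafa1, with 5 sites, and Pld4, with 3, lay below the median of the genes called higher, and those of Grm8, with 33, and Acvr2b, with 27, above that of the genes called neither. The call depends on the UMIs of a gene, which were not matched between these sets, so no difference between them was tested.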
